A study of Mus musculus with 6 samples.

Results

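The replication-dependent histone genes were examined in HSCs of mice given IGF1 or vehicle. They were taken as every gene whose symbol starts with Hist1h, Hist2h, Hist3h or Hist4, which gave 67 of the 21878 genes listed in each library. By class these were 6 genes of the linker histone H1, 18 of H2A, 18 of H2B, 12 of H3 and 13 of H4. The rule rested on names and used no measured value, but it was chosen with earlier results of these data known. The cells were labelled as hematopoietic stem cells of WT mice, sorted from BM as Lin-Sca-1+c-Kit+Flt3-CD34- cells, and sequenced in 3 libraries of vehicle-treated controls and 3 libraries of mice given 200 µg/kg IGF1 under the skin, both at day 1. The dose, the vehicle and the day were taken from the methods and legends of the study. The labels conflict, since the treatment label and the series design name IGF1 while the extraction text names irradiation, and IGF1 was taken here. Nothing in the labels says how many mice stand behind a library or whether replicates came from separate mice, so p-values measure the spread between these libraries, which may be technical.

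Histones H2A, H2B, H3 and H4 form the protein core around which DNA is wound, and H1 binds the DNA between cores. The replication-dependent genes supply them during S phase, when newly copied DNA has to be packaged, and their mRNA is made and destroyed with the cycle. Most such mRNAs have no introns and end without a poly(A) tail, in a short hairpin, the stem-loop, which is bound by the protein SLBP. Some members are also known to give polyadenylated transcripts, among them Hist1h1c, Hist1h2bc and Hist2h2be, in cells that are not dividing. The libraries were made with a kit that selects mRNA by its poly(A) tail, so the values below describe whatever part of each gene's transcripts such a kit recovered, and in bulk samples a change in the number of cells in S phase and a change in RNA per cell cannot be told apart.

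The 3' stem-loop is shown first, since it is the feature that sets these mRNAs apart. The consensus of the histone stem-loop, with 6 bases in each arm of the stem around a loop of 4 bases, was found on the transcript strand of the reference transcripts (GENCODE M21, build GRCm38) of 46 of the 67 genes and of 88 of 55274 other genes, or 0.159%. The stem bases are in capitals and the loop is in lower case, read 5′ to 3′, and the arms of the stem were complementary in every form found. The first form below was held by 26 members, namely 3 of H1, 10 of H2A, 8 of H2B and 5 of H3. The second was held by 7 members, all of H4, and the last by 6 members, namely 1 of H1, 2 of H2B and 3 of H3.
H1, H2A, H2B and H3 form: GGCTCTtttcAGAGCC
H4 form: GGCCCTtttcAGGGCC
second H1, H2B and H3 form: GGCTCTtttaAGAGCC
The other 7 members with a stem-loop held 5 further forms, of which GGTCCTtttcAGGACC was found in 2 H4 genes. No match in the other members says only that these letters are not in the transcripts searched.

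Most members lay in clusters. The Hist1 genes (54 members) were on chromosome 13 in 3 groups, at chr13:21715763-21837530 with 18 members, at chr13:22035164-22043676 with 5 and at chr13:23531050-23934851 with 31. The Hist2 genes (10 members) were on chromosome 3, Hist3h2a and Hist3h2ba on chromosome 11 and Hist4h4 on chromosome 6. In 62 of the 67 members every reference transcript had 1 exon.

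Promoters are shown for 4 members called below, because promoters of this family share short motifs. Windows from 250 bases before to 50 bases after the start of the gene (RefSeq, GRCm38.p6) were found for 62 members and searched on both strands for TATAAA (the TATA box), CCAAT (the CCAAT box, which marks many cell cycle promoters) and ATTTGCAT (the octamer, to which OCT1 binds in H2B promoters). The TATA box was in 56.5% of the members and in 15.7% of 27025 genes with a window, the CCAAT box in 85.5% and 41.1%, and the octamer in 22.6% and 1.97%. The CCAAT box was in all 50 windows of H1, H2A, H2B and H3 genes and in 3 of 12 windows of H4 genes. The octamer was in 7 of 18 H2A and 7 of 16 H2B windows and in 0 of the H1, H3 and H4 windows. The 150 bases before the start follow, with any of these motifs, on either strand, in capitals. Hist1h2bg shares its stretch with the H2A gene Hist1h2ae, which starts 176 bases away on the other strand.
Hist1h2bg, chr13:23571250-23571399, plus strand: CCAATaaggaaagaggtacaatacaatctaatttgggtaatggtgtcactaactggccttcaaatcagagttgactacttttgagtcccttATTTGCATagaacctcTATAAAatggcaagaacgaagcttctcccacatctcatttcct
Hist1h3e, chr13:23562386-23562535, minus strand: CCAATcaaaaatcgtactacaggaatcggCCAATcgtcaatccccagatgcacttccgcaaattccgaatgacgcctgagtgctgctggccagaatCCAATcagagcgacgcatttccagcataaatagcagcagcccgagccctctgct
Hist3h2ba, chr11:58948761-58948910, plus strand: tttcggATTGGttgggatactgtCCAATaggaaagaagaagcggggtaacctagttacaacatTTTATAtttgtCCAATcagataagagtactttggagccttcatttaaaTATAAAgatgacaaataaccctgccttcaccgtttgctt
Hist1h4h, chr13:23530894-23531043, plus strand: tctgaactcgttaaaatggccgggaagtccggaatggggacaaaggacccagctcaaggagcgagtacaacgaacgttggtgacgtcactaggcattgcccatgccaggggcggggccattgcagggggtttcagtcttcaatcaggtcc
The H4 gene Hist1h4h held none of the 3 motifs in its window, while Hist1h2bg held all of them.

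The libraries behind these values held between about 11300000 and 16100000 reads each, a depth recovered from the whole-read steps of the deposited FPKM values (fragments per kilobase of a gene, scaled to library depth). Control replicate 2 stood apart from the other controls. Over genes with at least 20 reads in a pair, the chi-squared per gene was 1.51 between control replicates 1 and 3 and 1.68 to 1.88 between IGF1 libraries, but 227 and 228 between control replicate 2 and the other controls and 24.3 to 27.6 between it and the IGF1 libraries. The counts below are therefore also given without this library. Transcripts of 2 genes used to exclude cells in the sort were present: Cd34 had 640, 265 and 634 FPKM in controls and 230 to 238 FPKM with IGF1, and Flt3 had 117, 172 and 117 FPKM and 183 to 188 FPKM.

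Of the 67 histone genes, 65 had a value above 0 in at least 1 library and 61 in all 6. Hist1h2aa and Hist3h2a were listed at 0 in every library. Hist1h2aa, Hist1h2ba and Hist1h1t are known for expression in the male germ line, and the latter 2 reached at most 0.201 and 0.739 FPKM. Genes were tested where at least 3 of the 6 libraries had at least 1 FPKM, which kept 61 members: 5 of H1, 16 of H2A, 15 of H2B, 12 of H3 and 13 of H4. Of these, 47 had at least 1 FPKM in all 3 controls, and 14 did not and passed with the help of the IGF1 libraries, where histone genes were high. The tested genes are therefore not all members, and for these 14 the filter favours a higher value with IGF1. Hist1h2bq, Hist1h2br, Hist1h2ba, Hist1h1t, Hist1h2aa and Hist3h2a were not tested.

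Histone transcripts took up a larger share of the IGF1 libraries than of control replicates 1 and 3. The 67 genes held 3824, 9793 and 3787 reads in control replicates 1, 2 and 3, or 0.0248%, 0.0890% and 0.0245% of the reads on listed genes. In the IGF1 libraries they held 13145, 11644 and 13602 reads, or 0.111%, 0.108% and 0.111%. The median of the tested members was 4.36, 16.6 and 4.20 FPKM in controls against 20.5, 19.0 and 19.1 FPKM with IGF1. Control replicates 1 and 3 were thus alike and low, the IGF1 libraries alike and high, and control replicate 2 was close to the IGF1 libraries.

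The sums of each histone class followed this order. The H2A genes summed to 95.6, 407 and 92.9 FPKM in control replicates 1, 2 and 3 and to 545, 502 and 530 FPKM in IGF1 replicates 1, 2 and 3. The H2B genes summed to 108, 449 and 107 FPKM in controls and to 577, 594 and 578 FPKM with IGF1. The H4 genes summed to 102, 367 and 113 FPKM and to 468, 439 and 474 FPKM. The H3 genes were lowest, at 32.6, 130 and 33.0 FPKM in controls against 164, 152 and 164 FPKM with IGF1. The linker genes of H1 summed to 87.3, 207 and 79.1 FPKM in controls and to 218, 208 and 209 FPKM with IGF1, so that control replicate 2 lay within 1 SD (5.26 FPKM, n = 3) of the IGF1 mean of 212 FPKM. In all 5 classes each IGF1 library lay above each control, for H1 by little. Against control replicates 1 and 3 the IGF1 mean was 2.54 times as high for H1, 5.58 for H2A, 5.43 for H2B, 4.87 for H3 and 4.30 for H4. Against control replicate 2 it was 1.02, 1.29, 1.30, 1.23 and 1.25 times as high. These sums were not rescaled, and FPKM over all listed genes also differed between libraries. It summed to 466619, 635111 and 466135 in controls and to 680285, 677826 and 678752 with IGF1. The 67 genes held 0.0912%, 0.246% and 0.0910% of that total in controls and 0.290%, 0.280% and 0.288% with IGF1. The share of H1 in the summed FPKM of all 67 genes was 20.5%, 13.3% and 18.6% in the controls and 11.0%, 11.0% and 10.7% in the IGF1 libraries.

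**Figure D1:**
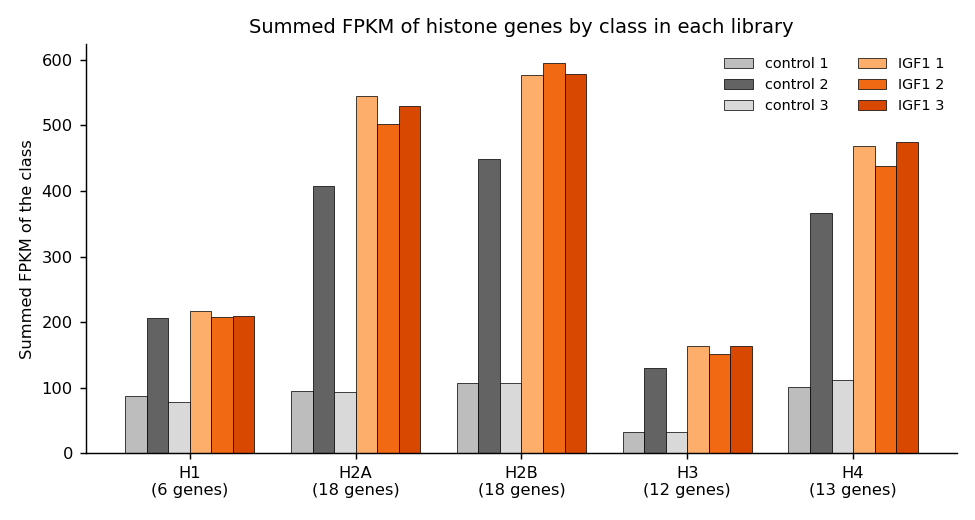
Summed FPKM (y axis) of the histone genes of each class (x axis), with 1 bar per library, grey for control and orange for IGF1. In each class control replicates 1 and 3 are low and control replicate 2 stands near the 3 IGF1 libraries, as for H2A with 95.6, 407 and 92.9 FPKM in controls against 502 to 545 FPKM with IGF1.

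In the fit of all 6 libraries, 9 of the 61 tested histone genes were higher in IGF1 and 0 were lower, with calls made where limma gave more than a 2-fold difference and an adjusted p (Benjamini-Hochberg) under 0.05. Over all 10449 genes tested, 1.98% were called higher and 4.63% lower, or 207 and 484 genes. This split depended on the scaling, with 392 higher and 210 lower after 75th percentile scaling, where 13 members were higher against 3.75% of all genes, and with 304 and 319 after quantile normalization. The adjusted p alone was under 0.05 in 11 members, all higher in IGF1, against 6.26% of all genes. At an unadjusted p under 0.05, 42 members were higher, against 19% of all genes, and 0 were lower. All 61 log2 fold changes were above 0, as were 40.4% of all genes, and 48 were above 1, as were 6.91%. The groups did not overlap, with IGF1 higher, in 34 members and in 21.9% of all genes. The median log2 fold change of the members was 1.26, and that of all genes tested was -0.18. Other genes of 350 to 500 bases, the length of 36 of the 61 members, had a median of 1.27. By class the medians were 1.15 for H1, 1.40 for H2A, 1.26 for H2B, 1.22 for H3 and 1.35 for H4. Of the 47 members with at least 1 FPKM in all controls, 47 were above 0, 40 were above 1 and 6 were called, at a median of 1.31, while 37.4% of the 9794 such genes over the whole table were above 0, 6.27% were above 1 and 1.54% were called higher. Hist1h2ah, Hist1h4a and Hist1h4f, the other 3 called, were among the 14 that did not reach this level in all controls. A further 19 members with a fold change over 2 had an adjusted p between 0.05 and 0.07.

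Control replicate 2 set these counts. It lay nearer the IGF1 mean than the mean of the other controls in 58 of 61 members (77.3% of all genes), above control replicates 1 and 3 in 59 and above all IGF1 libraries in 9. Without it 56 of the 61 members were called higher, against 12.3% of all genes, and the median was 1.81. Other genes of 350 to 500 bases then had a median of 1.78, and the members of that length had 1.90. From 500 to 700 bases these medians were 1.48 and 1.69. All 61 then had an adjusted p under 0.05 and were higher, against 34.9% of all genes. The 9 members called with all libraries then had log2 fold changes of 1.26 to 3.02. The 5 that were not called then were Hist1h1b, Hist1h1d, Hist2h2be, Hist2h3c1 and Hist2h3c2, at log2 fold changes of 0.84, 0.59, 0.38, 0.62 and 0.81. Without any other single library 0 members and 0 genes of the whole table were called, and between 19 and 24 members were higher at an unadjusted p under 0.05.

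**Figure D2:**
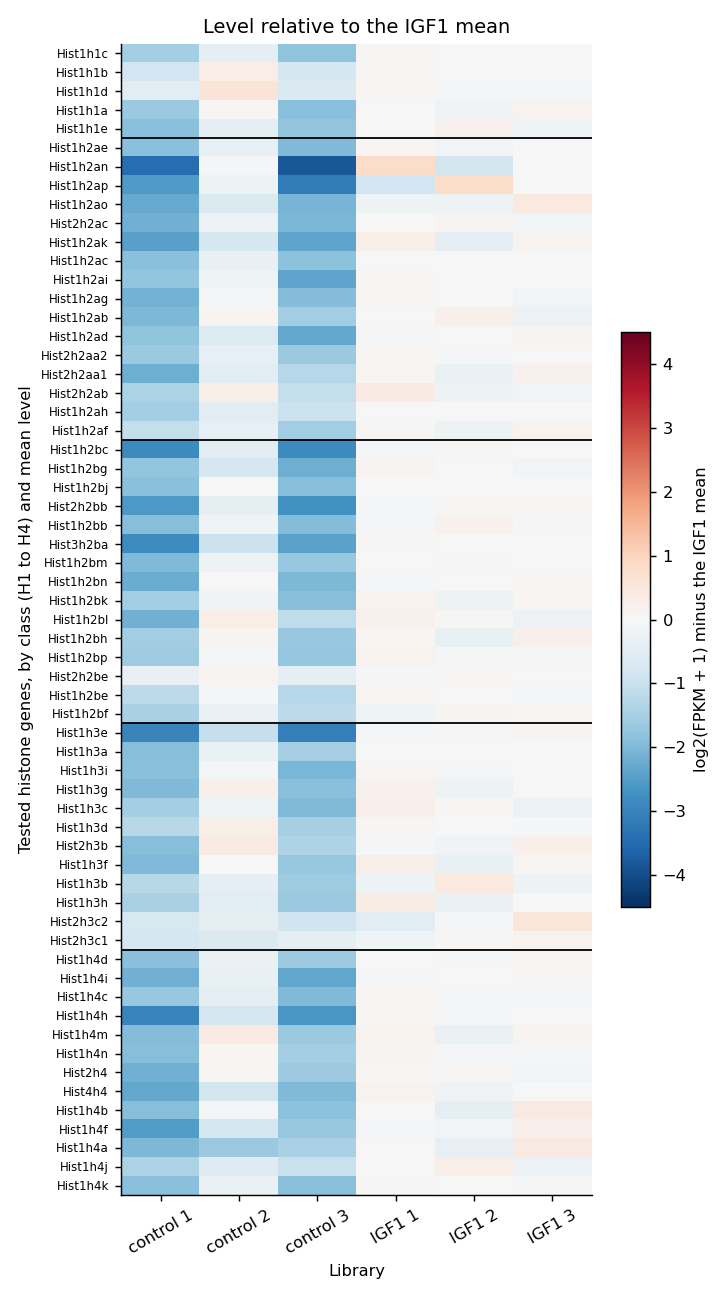
Level of each of the 61 tested histone genes (rows, by class from H1 at the top to H4 and by mean level) in each library (columns), as log2(FPKM + 1) minus the mean of the 3 IGF1 libraries, blue for lower and red for higher. Control replicates 1 and 3 are blue nearly throughout, and control replicate 2 lies above both in 59 of the 61 rows.

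Among the H1 genes, none passed the test. Hist1h1c (chr13:23738808-23740367, GRCm38), a linker histone of many non-dividing cells, led the class with 33.0, 70.4 and 26.4 FPKM in controls against 99.0, 94.8 and 94.1 FPKM with IGF1. Its groups did not overlap, and its log2 fold change was 1.26 (SE 0.35, limma adjusted p = 0.0521). Hist1h1b, which had 20.4, 47.9 and 21.5 FPKM in controls against 39.4, 37.5 and 38.0 FPKM with IGF1, was highest in control replicate 2 (0.45, SE 0.33, limma adjusted p = 0.273). The largest change of the class was that of Hist1h1e, with 4.95, 14.8 and 5.39 FPKM in controls against 20.5, 23.7 and 18.2 FPKM with IGF1 (1.36, SE 0.39, limma adjusted p = 0.0536). Hist1h1d, singled out after its values were seen, had the smallest change of all 61 genes (0.20, SE 0.33, limma adjusted p = 0.614), with 47.9 FPKM in control replicate 2 and 30.8 to 34.4 FPKM in the IGF1 libraries. The share of the class held by Hist1h1c was 37.7%, 34.0% and 33.4% in the controls and 45.5%, 45.5% and 45.1% with IGF1.

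Of 16 tested H2A genes, Hist1h2ah and Hist1h2ak were called. Hist1h2ak (chr13:21753435-21753827) had 6.17, 21.3 and 6.60 FPKM in controls against 46.2, 28.3 and 42.3 FPKM with IGF1 (1.87, SE 0.48, limma adjusted p = 0.0467). All IGF1 libraries exceeded all controls. Hist1h2ah (chr13:22035164-22035568) was low, with 0.956, 2.99 and 1.90 FPKM in controls against 4.79, 4.57 and 4.75 FPKM with IGF1 (1.01, SE 0.26, limma adjusted p = 0.0473), and 12.1% of its 100-base windows are found in no other reference gene. The gene of the highest mean over the 6 libraries, Hist1h2ae (chr13:23570517-23571220), stood close to Hist1h2an, whose mean was higher in the IGF1 libraries (87.9 against 83.1 FPKM). Hist1h2ae had 22.0, 63.2 and 20.01 FPKM in controls against 88.5, 76.7 and 84.0 FPKM with IGF1 (1.42, SE 0.43, limma adjusted p = 0.0575). Without control replicate 2 all 16 were called.

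Of 15 tested H2B genes, Hist1h2bg and Hist3h2ba were called. Hist1h2bg (chr13:23571396-23572013), whose promoter is printed above, had 19.1, 40.5 and 14.2 FPKM in controls against 73.9, 68.5 and 63.2 FPKM with IGF1 (1.57, SE 0.37, limma adjusted p = 0.0430). Hist3h2ba (chr11:58948920-58949533), on chromosome 11 beside Hist3h2a, had 4.05, 17.3 and 5.77 FPKM in controls against 36.1, 34.0 and 34.4 FPKM with IGF1 (2.07, SE 0.47, limma adjusted p = 0.0419). In both genes control replicate 2 stood between the groups. Hist1h2bc (chr13:23684199-23692908), known for polyadenylated transcripts, had the highest mean FPKM of the 67 genes over the 6 libraries, although Hist1h4d was higher in control replicate 3, with 33.2, 180 and 33.4 FPKM in controls against 237, 259 and 250 FPKM with IGF1. Its log2 fold change of 2.06 had an SE of 0.66 and did not pass (limma adjusted p = 0.0610). It held 30.7%, 40.1% and 31.3% of the class in the controls and 41.1%, 43.6% and 43.3% with IGF1. Hist2h2be, which also gives polyadenylated transcripts and was singled out after its values were seen, was low and nearly level, with 2.39, 3.67 and 2.14 FPKM in controls against 3.12, 3.44 and 3.17 FPKM with IGF1 (0.21, SE 0.17, limma adjusted p = 0.342).

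Among 12 tested H3 genes, Hist1h3e was called. Hist1h3e (chr13:23561534-23562369) had 5.18, 22.3 and 4.75 FPKM in controls against 45.0, 45.5 and 51.8 FPKM with IGF1 (2.36, SE 0.55, limma adjusted p = 0.0429). It had the highest mean of the H3 genes over the 6 libraries and in the IGF1 libraries, but not in control replicates 1 and 3, where Hist1h3a was higher. Its share of the class was 15.9%, 17.2% and 14.4% in the controls and 27.5%, 29.9% and 31.7% with IGF1. In Hist1h3a the controls had 5.97, 20.2 and 8.16 FPKM and the IGF1 libraries 25.6, 25.2 and 24.6 FPKM (1.24, SE 0.40, limma adjusted p = 0.0631).

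Of 13 tested H4 genes, 4 were called, all of them at low or moderate levels. Hist1h4h (chr13:23531050-23531519) had 5.31, 28.7 and 7.13 FPKM in controls against 51.0, 46.5 and 49.0 FPKM with IGF1 (2.11, SE 0.57, limma adjusted p = 0.0499). Hist1h4a (chr13:23760692-23761230) was an exception to the place of control replicate 2, with 0.960, 1.52 and 1.91 FPKM in controls against 6.92, 5.24 and 9.55 FPKM with IGF1. Its log2 fold change was 1.73 (SE 0.24, limma adjusted p = 0.0287) and 1.75 without that library. Hist1h4f had 0.872, 5.08 and 2.25 FPKM in controls against 9.01, 8.63 and 11.3 FPKM with IGF1 (1.67, SE 0.42, limma adjusted p = 0.0466). Hist4h4, at chr6:136801553-136804415, had 2.42, 8.69 and 3.25 FPKM in controls against 17.8, 14.3 and 16.1 FPKM with IGF1 (1.71, SE 0.39, limma adjusted p = 0.0429). The most abundant H4 genes did not pass: Hist1h4d had 32.1, 97.2 and 37.9 FPKM in controls against 119, 117 and 126 FPKM with IGF1 (1.27, SE 0.41, limma adjusted p = 0.0614). For Hist1h4i the controls had 24.6, 89.4 and 21.9 FPKM and the IGF1 libraries 110, 112 and 119 FPKM (1.61, SE 0.53, limma adjusted p = 0.0631).

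For a single gene, the smallest p that a 2-sided exact permutation test of these 6 libraries allows is 0.1. Of the 18 members named by the rule, 16 reached this smallest p, and the exact p was 0.4 for Hist1h1b and 0.2 for Hist1h2an. The rule names called and most changed members, which favours this count. The smallest p is reached where the groups do not overlap. With IGF1 higher, this held in 34 of the 61 tested members and in 21.9% of all genes.

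**Figure D3:**
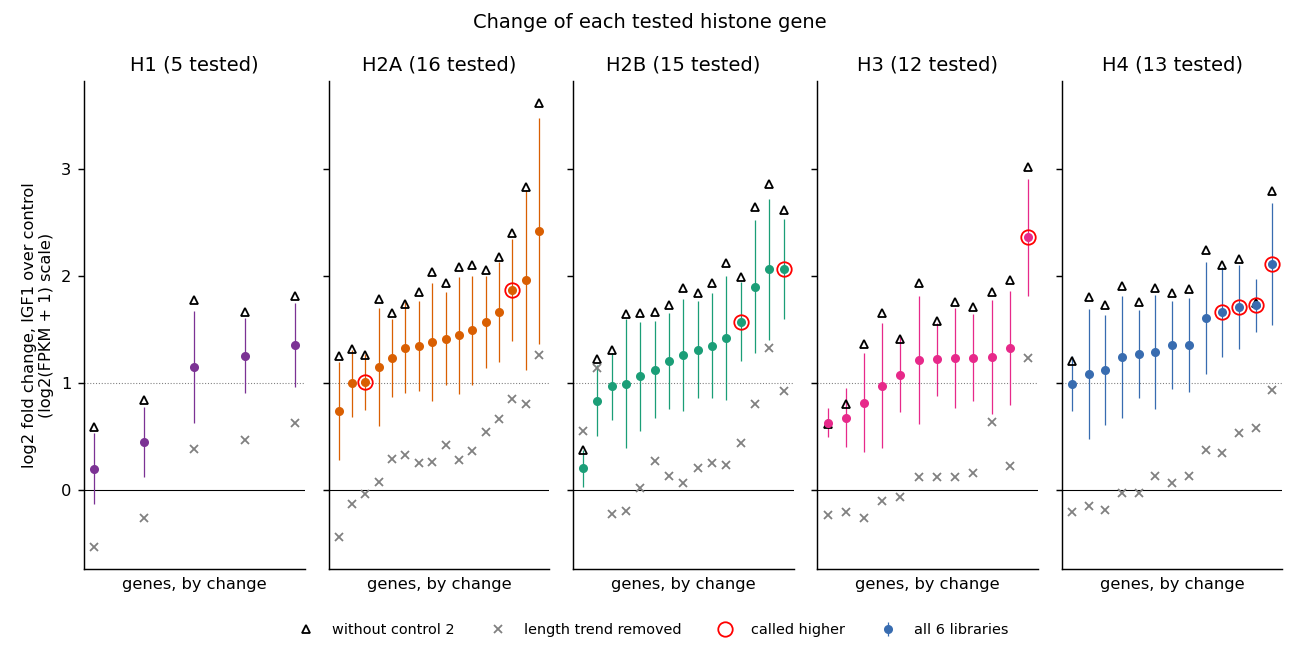
Log2 fold change of IGF1 over control on the log2(FPKM + 1) scale (y axis) for each tested gene, ordered by its change within its class (x axis). Dots with standard errors are the fit of all 6 libraries, red rings mark the 9 genes called higher, triangles leave out control replicate 2, and crosses have the length trend of other genes removed. All 61 dots lie above 0, while 17 of the crosses lie below it.

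The order of the genes by level was similar in both groups: across the 61 tested members, the rank correlation between the mean FPKM in control replicates 1 and 3 and that in the IGF1 libraries was 0.95. These points are genes of the same libraries. The IGF1 mean was 1.43 to 15.8 times that of control replicates 1 and 3, with a median of 4.49. The groups on chromosome 13 had medians of 1.32, 1.26 and 1.27 in log2 fold change, and the Hist2 genes on chromosome 3 had 1.10. Members with a TATA box had a median of 1.33 (33 tested) and those without 1.26 (23), members with a CCAAT box 1.26 (47) and those without 1.36 (9), and members with an octamer 1.35 (11) and those without 1.26 (45). Members whose annotation runs more than 100 bases past the stem-loop had a median of 1.27 (21), those with at most 100 bases 1.26 (23), and those with no match 1.22 (17).

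In 12 places an H2A and an H2B gene start back to back, 176 to 306 bases apart, and in 9 of these pairs both were tested. The changes within a pair differed by 0.12 to 1.30 on the log2 scale, and the H2A gene had the larger change in 6 of the 9. Levels within a pair could be far apart. Hist1h2bc had a mean of 249 FPKM in the IGF1 libraries and its partner Hist1h2ac 31.1 FPKM, and Hist2h2be had 3.24 FPKM where its partner Hist2h2ac had 48.8 FPKM. For this last pair the log2 fold changes were 0.21 and 1.49.

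Because members of a class resemble each other in sequence, reads may have been split between copies, and single genes are uncertain where few of their windows are unique. Such a split was not tested. Values spread widely among the IGF1 libraries in Hist1h2an, the H2A gene of the largest log2 fold change, 2.42 (SE 1.06, limma adjusted p = 0.108), and in Hist1h2ao and Hist1h2ap, singled out after their values were seen. In these genes 16.7%, 7.35% and 7.83% of 100-base windows are found in no other reference gene. Hist1h2an had 6.42, 76.8 and 4.72 FPKM in controls against 141, 43.7 and 79.0 FPKM with IGF1. Hist1h2ap had 10.5, 56.4 and 6.59 FPKM in controls against 35.3, 119 and 67.3 FPKM with IGF1, so that the gene highest in IGF1 replicate 1 was lowest in IGF1 replicate 2 and the reverse. Hist1h2ao had 55.5, 56.1 and 89.2 FPKM with IGF1. Their sum was steady at 232, 218 and 235 FPKM with IGF1 (coefficient of variation 3.95%, against 28.8% to 57.0% for the single genes), and was 29.6, 175 and 25.9 FPKM in the controls. Over all tested members the median coefficient of variation among IGF1 libraries was 19.8% in the 11 with under 20% unique windows and 6.95% in the 20 with at least 80%. The median log2 fold change was 1.23 in the former and 1.27 in the latter.

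**Figure D4:**
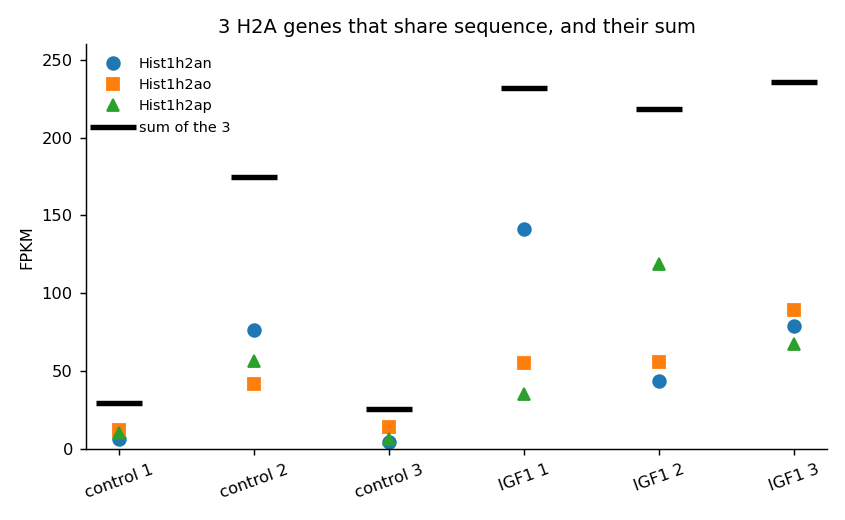
FPKM (y axis) of Hist1h2an, Hist1h2ao and Hist1h2ap in each library (x axis), with black bars for their sum. The single genes trade places among the IGF1 libraries while the sum stays between 218 and 235 FPKM, and it is 25.9, 29.6 and 175 FPKM in the controls.

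Gene length moved with the changes, and histone genes are among the shortest in the table. The length recovered from the FPKM steps was 358 to 2667 bases for the tested members, with a median of 483, and 3218 was the median of other genes. Other genes of 350 to 500 bases had a median log2 fold change of 1.27 (68 genes, 7.35% called higher), and the 36 histone genes of that length had 1.35, with 7 called. From 500 to 700 bases the medians were 1.06 (200 genes, 8.5% called higher) and 1.18 (16 histone genes, 2 called), and from 700 to 1000 bases they were 0.72 (395 genes, 8.61% called higher) and 1.24 (7 histone genes, 0 called). For other genes of 2500 to 4000 bases the median was -0.43. The 2 histone genes of that length, named after their values were seen, were Hist1h2be (0.84, SE 0.33, limma adjusted p = 0.0879) and Hist2h2be (0.21). The histone median at 350 to 500 bases lay between the quartiles of the other genes of that length, 0.79 and 1.59. The GC content of the tested histone genes, taken up to the end of the stem-loop where there was one, had a median of 62.0%. Other tested genes of any length had 49.7%, taken over the longest reference transcript. These unlike measures were also used where the GC trend of the other genes was removed.

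With the length trend of the other genes removed, 1 member, Hist1h3e, was called higher, against 3.24% of all genes, and the median of the members fell to 0.24, with 44 above 0 and 17 below. The same setting without control replicate 2 called 8 members higher, against 11.7% of all genes. With all libraries Hist1h3e then had a log2 fold change of 1.24 (limma adjusted p = 0.0215), Hist1h4h 0.93 (0.0309), Hist3h2ba 0.93 (0.0222), Hist1h2ak 0.85 (0.0362) and Hist4h4 0.53 (0.0384). Of the other members called in the main fit, Hist1h2bg had 0.44 (limma adjusted p = 0.0492), Hist1h4a 0.58 (0.299), Hist1h4f 0.35 (0.272) and Hist1h2ah -0.034 (0.902). Hist1h1d was below 0, at -0.53 (limma adjusted p = 0.0272). Hist1h2bc kept 1.33 (limma adjusted p = 0.0522). With the trends of length and GC content over all genes removed, using the lengths of the reference transcripts, 2 members were called higher, against 1.49% of all genes, and without control replicate 2 this was 12, against 10.4%. With the trends of length and GC content of the other genes removed, 0 members were called by limma (6 were higher and 8 lower at an unadjusted p under 0.05), against 1.58% of all genes called higher, and the median was -0.12, with 36 of 61 members below 0. This became 5 members higher, against 9.74% of all genes, and 1 lower when control replicate 2 was left out. Why the changes followed length was not tested.

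**Figure D5:**
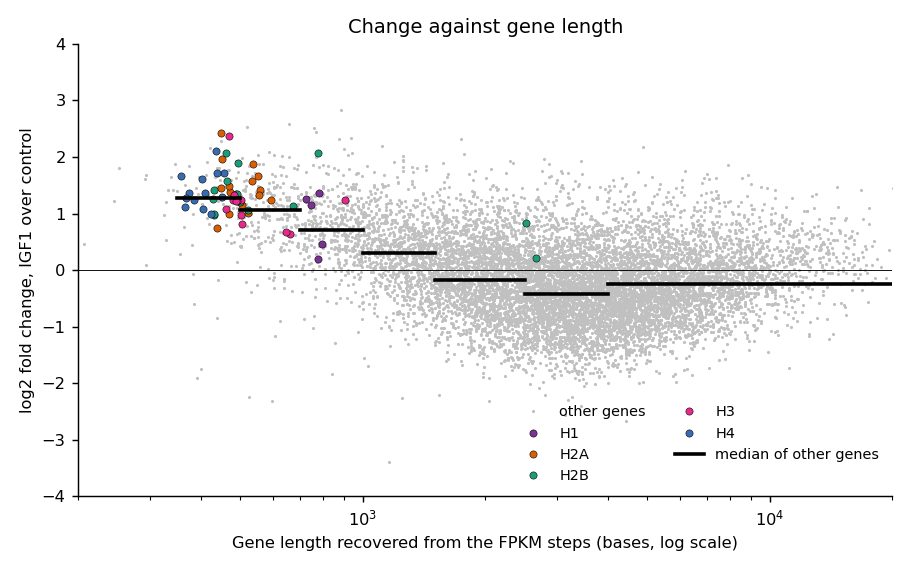
Log2 fold change of IGF1 over control (y axis) against the gene length recovered from the files in bases (x axis, log scale), for other genes in grey and histone genes in the colour of their class. Black bars are medians of other genes per length range, which go from 1.27 at 350 to 500 bases to -0.43 at 2500 to 4000 bases, and most histone genes lie around the leftmost bars.

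Genes that make and handle histone mRNA and protein are known to be regulated with the cell cycle. Of 29 tested genes for histone mRNA 3' end processing and histone gene transcription, 0 were called higher and 3 lower, with a median log2 fold change of -0.44, where 4.63% of all genes were lower. Slbp, whose protein binds the stem-loop and which is needed to process and translate histone mRNA, fell, with 170, 78.8 and 176 FPKM in controls against 42.8, 40.6 and 40.4 FPKM with IGF1 (-1.67, SE 0.32, limma adjusted p = 0.0365). Cpsf3, the endonuclease that cuts the pre-mRNA after the stem-loop, fell by 1.32 on the log2 scale (SE 0.35, limma adjusted p = 0.0482). Cstf2, a subunit of the cleavage stimulation factor, also fell, by 1.87 (SE 0.50, limma adjusted p = 0.0497). Lsm4, an abundant member of the RNA-binding Lsm family, had 186, 429 and 187 FPKM in controls against 535 to 554 FPKM with IGF1 (1.15, SE 0.35, limma adjusted p = 0.0564). With the length trend removed the median of this list was -0.24 and Slbp stood at -1.55, while Cpsf3 stood at -0.90, under a fold of 2. Without control replicate 2, 1 gene of the list was called higher and 10 of the 29 lower, where 20.6% of all genes were called lower.

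Of 27 tested histone chaperone and import genes, 0 were called higher and 2 lower (4.63% of all genes were lower), with a median of -0.33, or -0.11 with the length trend removed. These were Rbbp4 and Rbbp7, the histone-binding subunits of several chromatin complexes, at -1.22 (SE 0.27, limma adjusted p = 0.0412) and -1.55 (SE 0.42, limma adjusted p = 0.0498). Rbbp4 was at -0.83 with the length trend removed, under a fold of 2, and Rbbp7 at -1.30. When control replicate 2 was left out, 0 were higher and 6 of the 27 lower, a share near the 20.6% of all genes. The abundant chaperone genes Npm1 and Set had log2 fold changes of -0.08 and -0.64. Of 40 tested genes of DNA replication and S phase, a list that also holds Slbp, 0 were called higher and 4 lower (4.63% of all genes were lower), with a median of -0.65, or -0.50 with the length trend removed. The 4 were Slbp, Gins3, a subunit of the replicative helicase complex (-1.56, SE 0.20, limma adjusted p = 0.0285), Cdc6, which licenses replication origins (-1.22, SE 0.25, limma adjusted p = 0.0380), and Rrm2, which makes deoxynucleotides (-1.34, SE 0.32, limma adjusted p = 0.0435). Pcna, the sliding clamp, had 419, 485 and 426 FPKM in controls against 309, 309 and 314 FPKM with IGF1 (-0.51, SE 0.13, limma adjusted p = 0.0459), which is under a fold of 2. The clamp loader gene Rfc2 had 289 to 299 FPKM in controls and 291 to 300 FPKM with IGF1. With the length trend removed Cdc6 stood at -0.87, under a fold of 2. Without control replicate 2, 0 genes of the list were called higher and 18 of the 40 lower, against 20.6% of all genes. Mki67, a marker of cycling cells with the long length of 10105 bases, had 7.55, 21.0 and 7.83 FPKM in controls against 23.3 to 24.9 FPKM with IGF1 (1.10, SE 0.38, limma adjusted p = 0.0690).

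Histone genes outside the replication-dependent set make variants that replace histones outside S phase, from polyadenylated mRNA. Of 12 tested, 2 were called higher and 0 lower (3 and 1 without control replicate 2), with a median of 0.44, or 0.25 with the length trend removed. Of all genes, 1.98% were called higher, and 12.3% without control replicate 2. The 2 were H2afj, which makes the variant H2A.J, with 66.7, 150 and 64.2 FPKM in controls against 268 to 290 FPKM with IGF1 (1.69, SE 0.34, limma adjusted p = 0.0369), and H1fx, a linker histone gene, with 6.17, 8.32 and 6.37 FPKM in controls against 17.2 to 18.8 FPKM with IGF1 (1.28, SE 0.14, limma adjusted p = 0.0285). With the length trend removed H2afj stood at 1.78 and H1fx, of 1062 bases, at 0.82, under a fold of 2. H3f3b, which makes the variant H3.3, had 1173, 1112 and 1154 FPKM in controls against 989 to 1029 FPKM with IGF1 (-0.19, SE 0.16). H2afz had 989 to 1355 FPKM in controls against 1115 to 1152 FPKM with IGF1 (0.04, SE 0.20), and H3f3a stood at 0.23 (SE 0.24). H2afx, of which both stem-loop and polyadenylated transcripts are known, had 239, 284 and 241 FPKM in controls against 333 to 358 FPKM with IGF1 (0.44, SE 0.13, limma adjusted p = 0.0547). H3f3a, H3f3b and H2afz had more FPKM in every library than the highest replication-dependent gene, Hist1h2bc, had in any, on this scale per length.

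Markers of other cells moved with the libraries in part. The summed FPKM of 7 B cell genes was 91.7, 296 and 90.7 in the controls and 295 to 311 with IGF1, and that of 6 T and NK cell genes was 371, 779 and 360 and then 770 to 790, of which Nkg7 alone held 356 to 787 FPKM over all libraries. The sums of 6 megakaryocyte and platelet genes were 52.3 to 75.2 and 93.7 to 104, those of 8 erythroid genes 44.0 to 111 and 57.3 to 64.8, and those of 9 neutrophil and monocyte genes 2677 to 2804 and 2763 to 2778. The last sum was held mostly by Mpo, at 1613 to 1705 FPKM over all libraries, and its members differed. Of 7 tested, 4 were called lower and 0 higher, where 4.63% of all genes were lower and 1.98% higher. These 4, Ngp, Camp, S100a8 and S100a9, genes of maturing neutrophils, fell by 3.39, 2.32, 1.90 and 2.25 on the log2 scale (limma adjusted p of 0.0412, 0.0285, 0.0287 and 0.0285). S100a8 had 284, 163 and 285 FPKM in controls against 55.0 to 72.8 FPKM with IGF1. Elane, an enzyme gene of early neutrophil precursors, had 92.8, 576 and 92.5 FPKM in controls against 692 to 709 FPKM with IGF1 and did not pass (2.03, SE 0.72, limma adjusted p = 0.0726). In the other marker lists 1 gene was called, Gp1bb of platelets, which was higher (1.12, SE 0.22, limma adjusted p = 0.0368), as were 1.98% of all genes. The sum of 10 HSC and sort genes was 1257 to 1491 in the controls and 952 to 979 with IGF1. Among defining genes, Cd3e stayed at or under 0.206 FPKM, Ms4a1 at or under 0.339 FPKM and Ly6g at or under 0.200 FPKM in every library. The part of these cells in the histone values was not tested.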

How the data were processed

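RNA-seq of sorted mouse HSCs was used, with 3 control and 3 IGF1 libraries. The submitters' processing notes name fastp, HISAT2, StringTie and the builds GRCm38 and mm10, while the methods of the study name RSEM. The authors deposited 1 value per gene and library, whose unit is not stated and was taken as FPKM. For 99.3% of 13092 genes with at least 20 reads, the length implied by the smallest step was a whole number, and in 47 of 67 histone genes it equalled the RefSeq length. Values of a gene were whole multiples of that step for 99.9% of genes above 0 (tolerance 0.02 reads). All 67 symbols matched the reference.

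Genes that reached 1 FPKM in 3 or more libraries (10449) were compared on log2(FPKM + 1) with limma 3.58.1 (R 4.3.3, eBayes with trend), a scale that understates changes of low genes. The limma steps of the main fit and the recovery of reads were tested on simulated data, the trend removal and the summaries were not. Alternatives were other scalings, filters and pseudocounts, a replicate block, leaving out each library and removing trends of length and GC content. The members and gene lists were chosen with earlier results of these data known. Genes were named by a rule: called members, the 2 most abundant and the most changed of each class, and in other lists the called genes of the 3 smallest adjusted p and the 2 most abundant, with Slbp, H2afz, H2afx, H3f3a, H3f3b, Mki67 and Pcna. Other named genes were chosen after their values were seen. Sequences came from RefSeq (GRCm38.p6) and GENCODE M21, and lengths from the steps.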

Additional observations from a re-analysis of the deposited data

How the results depend on the processing

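The direction of the median over the tested histone genes, 1.26, and the absence of members called lower held under quantile normalization, 75th percentile scaling, other filters and pseudocounts, no variance trend, limma-voom on the recovered reads and every omission of 1 library. The 75th percentile scaling moved the median of all genes from -0.18 to 0.06 and called 13 members. Members called higher numbered 2 of 65 with no filter on low values, where 109 of 15640 genes were called higher. They numbered 0 to 56 when single libraries were left out, where 56 came without control replicate 2, against 12.3% of all genes. For this omission with 75th percentile scaling the count was 57, against 1879 of the 10449 genes tested. The median was then 2.11, with class medians of 2.01 for H1, 2.29 for H2A and 2.16 for H2B. The medians of H1 ran from 0.79 to 1.67 over the omissions. The replicate numbers did not pair the libraries (correlations of -0.057, -0.050 and 0.006 between the deviations of same-numbered libraries), and with a replicate block 0 members and 0 genes were called.

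Leaving out control replicate 2 moved the count of called members most, and the trends of length and GC content moved the median over all tested members most. With the trend of both over all genes removed, using the reference transcripts' lengths, which exceed the deposited ones for several members, 2 members were called, and the medians were 0.14 for all, 0.50 for H1, 0.072 for H2A, 0.051 for H2B, -0.12 for H3 and 0.47 for H4. Without control replicate 2, 12 members were called, and the medians were 0.15 for all, 0.95 for H1, 0.17 for H2A, 0.15 for H2B, -0.010 for H3 and 0.048 for H4. All settings in this section that combine the omission of control replicate 2 with another choice, and those that follow, were chosen after seeing the data. With the length trend of other genes removed, 1 member was called, and the medians were 0.24, 0.39, 0.31, 0.26, 0.13 and 0.13 in the same order (0.30, 0.55, 0.45, 0.39, 0.16 and 0.14 without control replicate 2, where 8 members were called). With length and GC content of other genes removed, 0 members were called and the medians were -0.12, 0.15, -0.083, 0.046, -0.27 and -0.24. Without control replicate 2, 5 members were called higher and 1 lower, at medians of -0.083, 0.19, -0.0098, 0.097, -0.25 and -0.26.

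Of the named genes, Hist1h1b was at -0.56, -0.26 and -0.40 in these 3 settings and at -0.57, -0.18 and -0.35 without control replicate 2. Hist1h2ah was at -0.58, -0.034 and -0.49, and at -0.87, -0.22 and -0.69. Hist1h3a was at -0.10 and -0.17 with GC content, and at -0.11 and -0.17. Hist1h4d was at -0.025 and -0.33, and at -0.066 and -0.41. Hist1h4a and Hist1h4f reached -0.18 and -0.13 in the last setting. The cause of these reversals was not tested beyond the trends removed. Members with few reads limit the precision: 37 of 67 had at least 20 reads in every library.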
